A study of Mus musculus with 6 samples.

Results

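The mRNA processing genes of the mouse are described here in stem cell cultures on day 4 of their differentiation into primitive macrophage progenitors, the earliest blood cells that can give rise to macrophages. A gene was taken as a member when the deposited annotation gave it the ontology term for mRNA processing, when it was protein-coding, and when it had 10 or more counts in at least 3 libraries. Genes inside the triplicated segment were left out. These criteria gave 217 members out of 55487 genes in the table, and all 217 were among the 17315 genes tested. They came from 228 protein-coding genes with the term, of which 10 had too few counts (among them Khdrbs2, Ern2, Celf6 and Rbm11) and 1, Scaf4, lay in the segment. Of the members, 214 had 10 or more counts in all 6 libraries. Just outside the threshold lay Khdrbs2 and Celf6, with at most 19 and 12 counts in a library, and just inside it Rbfox1, with 39 counts over the Ts1Cje and 28 over the wild-type libraries, and Papolb, with 14 and 61.

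The study compared 3 Ts1Cje with 3 wild-type samples by poly(A) RNA-seq, as part of the question why microglia are reduced in Ts1Cje embryos. Ts1Cje is a Down syndrome model with an extra copy of distal chromosome 16, from Sod1 to Zbtb21, and it is also known to carry a deletion on chromosome 12. Both groups were embryonic stem cells kept with LIF and serum replacement, and both were then differentiated for 4 days with the growth factors VEGF, FGF2, activin A and BMP-4. Samples carry lot numbers in the labels, with no statement that a lot is a culture or a line of its own. The p-values therefore reflect only how far these samples vary, perhaps for technical reasons, and genotype and line of origin cannot be told apart.

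The first transcript of a gene is cut and joined by the spliceosome, which is assembled from the U1, U2, U4/U6 and U5 small nuclear ribonucleoproteins (snRNPs), each an RNA in a ring of Sm or LSm proteins with proteins of its own. SR proteins bind exons and mostly favour their inclusion, whereas hnRNP proteins often repress it, and tissue-restricted regulators such as the RBFOX, MBNL, CELF and ESRP families change the choice of exons between cell types. At the far end, cleavage and polyadenylation factors read the poly(A) signal, cut the transcript and add the tail. In early embryos, exon choice changes as epithelial epiblast cells turn into mesenchymal mesoderm.

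Library totals ran from 16577065 to 19010856 counts. The first principal component, with 79.1% of the variance, separated the genotypes, and on the second, with 8.31%, wild-type replicate 1 lay away from its fellow replicates. Markers of other cell types differed strongly between the groups. Summed TPM of the 8 pluripotency markers was 1380 to 1900 in Ts1Cje and 195 to 427 in wild-type (7 of 8 higher in Ts1Cje), and that of the 4 epithelial markers was 2500 to 3400 in Ts1Cje and 713 to 1020 in wild-type (4 of 4 higher). The 10 endoderm markers summed to 775 to 1030 TPM in Ts1Cje and 223 to 269 TPM in wild-type (10 of 10 higher). The 8 mesoderm markers summed to 274 to 500 TPM in Ts1Cje and 2290 to 2430 TPM in wild-type (6 of 8 lower), and the 9 markers of blood and vessel progenitors to 42.2 to 106 TPM in Ts1Cje and 441 to 480 TPM in wild-type (7 lower, 1 higher). Of the 9 macrophage markers, Ptprc and Cx3cr1 were at 0 and Spi1, Adgre1, Aif1 and Itgam had fewer than 10 counts in every library. Csf1r was at 7.3 to 11.3 TPM and Cd68 at 9.7 to 25.5 TPM over the libraries. Whether progenitors of macrophages should express the absent genes on day 4 was not tested. The list summed to 29.7 to 36.8 TPM in Ts1Cje and 17.9 to 29.5 TPM in wild-type, mostly from Cd68 and Csf1r. Erythroid markers summed to 8.86 to 14.1 TPM in Ts1Cje and 8.05 to 11.5 TPM in wild-type, with Hbb-y and Hba-x at 0. Neural plate markers summed to 39.3 to 46.1 TPM in Ts1Cje and 6.14 to 12.8 TPM in wild-type, mostly from Sox2. Of these 4, Sox2 and Six3 were higher, and Pax6 and Sox1 were not among the tested genes. Fibroblast markers summed to 5.36 to 6.69 TPM in Ts1Cje and 10.4 to 26.0 TPM in wild-type. Col1a1, at 1.9, 14.8 and 19.5 TPM in wild-type libraries, and Col1a2 were lower in Ts1Cje. Thy1 did not pass, and Postn and Lum had fewer than 10 counts in every library. The part of cell-type makeup in the results on mRNA processing was not tested, and in bulk samples fewer cells of a type and less RNA per cell cannot be told apart.

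Most mRNA processing genes were slightly lower in Ts1Cje. Of the 217 members, 70 (32.3%) fell and 8 (3.69%) rose at an adjusted p below 0.05 in edgeR's quasi-likelihood test, against 20.5% of all tested genes lower and 23.3% higher, and 22.8% lower and 26.2% higher among 13814 tested protein-coding genes. A further 103 of the 139 members that did not pass had a log2 fold change below 0, so 173 of 217 (79.7%) lay below 0, against 49.4% of coding genes. The members' median log2 fold change was −0.14 (quartiles −0.25 and −0.03), a 0.908-fold level, where the median was −0.01 over all tested genes and 0.01 over coding genes. Fold changes here are Ts1Cje over wild-type from the counts, given as log2 value ± SE, with an approximate SE, and levels are the authors' deposited TPM, which are per gene length.

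The shifts were small and alike rather than large. The median absolute log2 fold change was 0.17 for members and 0.34 for coding genes. Of the 70 genes that fell, 64 fell by less than 1.5-fold, with a median of −0.29 or −18.5%. At 2-fold or more, 4 members (1.84%) were called, 2 lower and 2 higher, against 18.1% of all tested genes and 19.1% of coding genes. In 108 members (49.8%) every Ts1Cje library lay below every wild-type library, and in 17 (7.83%) every Ts1Cje library lay above. The same shares over all tested genes were 26.4% and 28.8%.

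**Figure D1:**
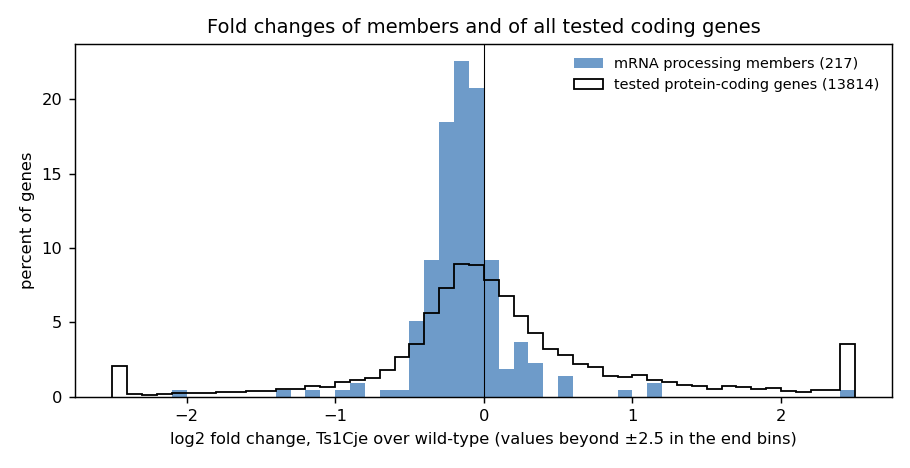
Share of genes (percent, vertical axis) by log2 fold change of Ts1Cje over wild-type (horizontal axis, values beyond 2.5 in the end bins), for 217 members (filled) and 13814 tested protein-coding genes (outline). The members form a narrow peak left of 0, with a median of −0.14, and the coding genes spread wider, with quartiles of −0.29 and 0.44.

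The summed level of the members was 25117, 25072 and 24348 TPM in Ts1Cje libraries, against 28431, 27490 and 27212 TPM in wild-type libraries. The 3 Ts1Cje sums lay below the 3 wild-type sums, with a ratio of means of 0.897, and the members took 3.76% to 3.88% of all counts in Ts1Cje and 4.24% to 4.32% in wild-type. Both are shares of a library and do not measure RNA per cell. Highly expressed genes in general were called lower more often: among coding genes the share called lower was 17.0% below 10 TPM, 24.0% from 10 to 50 TPM, 27.6% from 50 to 200 TPM and 35.2% at 200 TPM or more. Among members the calls in these classes were 3 of 22, 24 of 75, 32 of 92 and 11 of 28 lower, and 2, 2, 4 and 0 higher. The members' share lower was thus above that of coding genes from 10 to 200 TPM. It was near that share at 200 TPM or more and not above it below 10 TPM. The members had few increases in every class, where 23.6% to 28.6% of coding genes were higher.

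Of 182 members that matched a RefSeq promoter window (250 bases before to 50 after the start, build GRCm38.p6), the 235 windows were searched for 4 short motifs on both strands. CCGGAAG, the core of ETS-family sites, was in 28.1% of member windows and in 16.2% of 14008 windows of tested coding genes. Its share was 28.2% in windows of members that fell and 28.9% in those of members that did not pass. It was in 0 of the 5 windows of members that rose. The E-box CACGTG was in 8.94% of member windows and 9.64% of coding windows, the NRF1 motif GCATGCGC in 4.68% and 4.9%, and CCAAT in 34.9% and 37.4%. The 4 windows shown were picked from members whose only window holds the ETS core (capitals, either strand), so they do not show how common it is. They belong to a helicase gene, an SR gene and a 3′ end gene that fell and to an hnRNP gene that did not pass. They are Ddx39b (chr17:35241496-35241795, plus strand, cores at bases 227 and 291), Srsf7 (chr17:80207256-80207555, minus strand, core at base 33), Cpsf7 (chr19:10524994-10525293, plus strand, cores at bases 139 and 194) and Pcbp1 (chr6:86526140-86526439, minus strand, core at base 210), with bases counted from the window's 5′ end.
Ddx39b: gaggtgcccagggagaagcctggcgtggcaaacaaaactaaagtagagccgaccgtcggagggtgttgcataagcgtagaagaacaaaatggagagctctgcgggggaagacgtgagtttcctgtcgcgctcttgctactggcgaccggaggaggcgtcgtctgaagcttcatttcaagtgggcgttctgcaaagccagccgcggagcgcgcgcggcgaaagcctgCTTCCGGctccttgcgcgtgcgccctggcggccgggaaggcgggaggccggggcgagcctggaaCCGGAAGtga
Srsf7: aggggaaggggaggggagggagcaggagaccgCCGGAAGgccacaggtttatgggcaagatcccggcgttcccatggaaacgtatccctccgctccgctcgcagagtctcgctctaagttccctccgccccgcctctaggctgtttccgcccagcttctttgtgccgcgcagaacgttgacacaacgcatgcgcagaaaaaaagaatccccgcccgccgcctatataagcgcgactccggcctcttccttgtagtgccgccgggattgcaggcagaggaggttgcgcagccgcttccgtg
Cpsf7: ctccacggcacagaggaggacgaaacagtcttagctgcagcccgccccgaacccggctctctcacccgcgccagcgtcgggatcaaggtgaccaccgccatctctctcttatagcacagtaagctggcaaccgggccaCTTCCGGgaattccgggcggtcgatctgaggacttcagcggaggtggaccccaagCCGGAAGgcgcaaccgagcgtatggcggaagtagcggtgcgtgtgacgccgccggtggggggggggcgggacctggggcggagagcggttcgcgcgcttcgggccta
Pcbp1: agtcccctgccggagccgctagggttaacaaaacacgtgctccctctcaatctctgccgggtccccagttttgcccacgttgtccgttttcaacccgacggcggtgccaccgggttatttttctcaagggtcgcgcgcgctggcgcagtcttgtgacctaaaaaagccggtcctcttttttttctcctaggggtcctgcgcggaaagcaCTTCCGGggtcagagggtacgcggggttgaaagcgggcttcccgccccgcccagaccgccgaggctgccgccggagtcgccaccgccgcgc

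Members were grouped by role, each gene in 1 of 20 lists, and 164 of 217 had a role. Calls lower were spread over most groups, as the plot of fold changes by role shows. Counts in the groups below are to be read beside the 22.8% of tested coding genes called lower and the 26.2% called higher. The groups with the lowest medians were the U1-associated proteins (−0.32), the tissue-restricted and other splicing regulators (−0.20) and the cleavage and polyadenylation factors (−0.20). Every member lay below 0 among 16 SR proteins, 12 cleavage and polyadenylation factors, 5 Sm and LSm proteins, 4 exon junction proteins, 4 U1-associated proteins and 2 histone mRNA factors. Genes were named by a fixed rule of size, level and role, and further ones were added after their values were seen.

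**Figure D2:**
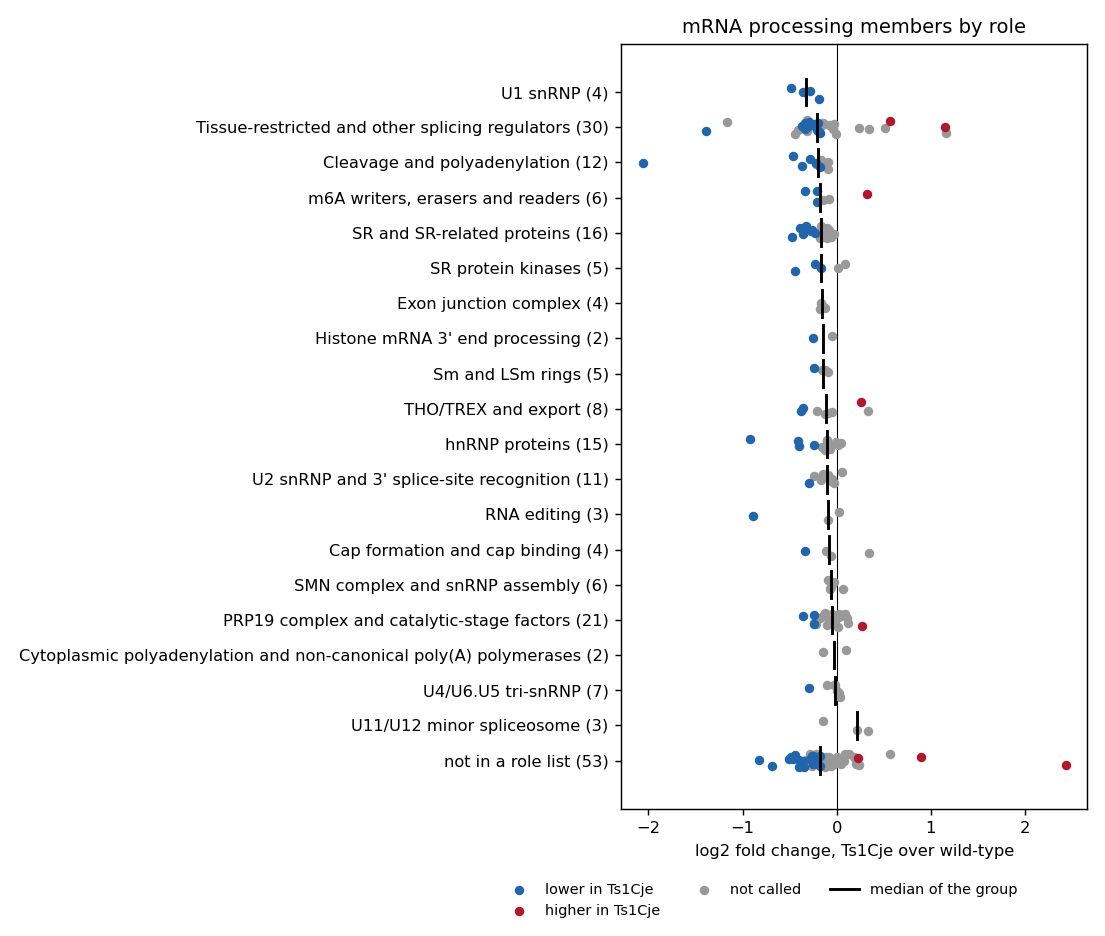
Log2 fold change of Ts1Cje over wild-type (horizontal axis) for each of the 217 members, one point per gene, in rows by role with the number of members in brackets. Blue points fell, red points rose, grey points did not pass, and the black tick is the median of the row, −0.32 for U1-associated proteins and 0.22 for the minor spliceosome.

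Recognition of the 5′ splice site begins with U1. All 4 members of this group fell, although only Snrpa is a core U1 protein. Tia1, which binds U-rich RNA behind weak 5′ splice sites and helps to recruit U1, had 18.6, 21.1 and 20.1 TPM in Ts1Cje and 25.1, 29.6 and 28.4 TPM in wild-type libraries. Its levels in the groups did not overlap, and its log2 fold change was −0.48 ± 0.08 (edgeR adjusted p = 0.00114). Snrpa had 159, 154 and 156 TPM in Ts1Cje and 181, 176 and 173 TPM in wild-type libraries (−0.19 ± 0.06, edgeR adjusted p = 0.0236). Luc7l3, a relative of a yeast U1 protein, fell (−0.28 ± 0.08). Prpf39, a relative of another, fell as well (−0.36 ± 0.06), with 35.2, 35.8 and 35.7 TPM in Ts1Cje and 46.01, 47.4 and 42.9 TPM in wild-type libraries, and its 25 tested coding neighbours within 5 Mb had a median of −0.32, 12 of them lower. Snrpa lost its call without Ts1Cje replicate 2 or 3 or wild-type replicate 2 or 3 (adjusted p up to 0.0736), and Luc7l3 lost its call without Ts1Cje replicate 1 or wild-type replicate 2 or 3 (adjusted p up to 0.0671). Snrnp70, the U1-70K protein, lacks the term and stood at −0.03 ± 0.06 (adjusted p = 0.763). Snrpc, the U1-C protein, also lacks the term and was called lower (log2 fold change −0.26).

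The U2 snRNP and 3′ splice-site group had 1 of 11 members lower and 0 higher, with a median of −0.10. Sf3a3, a subunit of the SF3A part of U2, had 157, 153 and 139 TPM in Ts1Cje, against 189.5, 176 and 181 TPM in wild-type libraries, with no overlap and a log2 fold change of −0.29 ± 0.07 (edgeR adjusted p = 0.00623). U2af2, which binds the polypyrimidine tract, had 282, 295 and 269.7 TPM in Ts1Cje and 327, 312 and 295 TPM in wild-type libraries. Its groups met at about 295 TPM, and it did not pass (−0.15 ± 0.06, adjusted p = 0.0593). Sf1, the branch point protein and the most abundant member here, stood at −0.05 ± 0.07 (adjusted p = 0.575), with overlapping groups. Its partners without the term did fall: Sf3b1, the branch point clamp, with −0.29 ± 0.05 (adjusted p = 0.00143) and U2af1, which reads the AG at the splice site, with −0.24 ± 0.06 (adjusted p = 0.00847).

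Few members of the later spliceosome were called, and more of its genes without the term were. Of 50 tested genes of both later lists without the term, 14 fell and 3 rose, where 22.8% of tested coding genes fell and 26.2% rose. In the U4/U6.U5 tri-snRNP 1 of 7 members fell, with a median of −0.02. That gene was Ik, a protein of the pre-catalytic spliceosome, with 104, 106 and 108 TPM in Ts1Cje and 126, 128 and 132 TPM in wild-type libraries (−0.29 ± 0.06, edgeR adjusted p = 0.00375). Of the large U5 proteins without the term, Snrnp200 fell (−0.25 ± 0.05) and Prpf8 did not pass (−0.12 ± 0.06, adjusted p = 0.123). The tri-snRNP protein gene Prpf6, chosen after its values were seen, fell (−1.01 ± 0.06), and its 66 coding neighbours on chromosome 2 within 5 Mb had a median of −0.70, 35 of them lower and 9 higher. The summed level of the 3 U11-associated minor spliceosome members was 91.8, 95.3 and 88.1 TPM in Ts1Cje and 85.9, 88.4 and 77.2 TPM in wild-type libraries. In this sum 1 wild-type library lay within the range of the Ts1Cje libraries. Zmat5 (0.22 ± 0.14, adjusted p = 0.221), Snrnp35 (0.33 ± 0.15, adjusted p = 0.0936) and Snrnp48 (−0.14 ± 0.07, adjusted p = 0.111) did not pass, nor did Rnpc3, which lacks the term (−0.12 ± 0.11).

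In the PRP19 complex and the catalytic stage, 3 of 21 members fell and 1 rose, with a median of −0.05. Bcas2, a core protein of the PRP19 complex, had 95.9, 93.5 and 90.9 TPM in Ts1Cje, against 78.2, 75.3 and 77.2 TPM in wild-type libraries. All 3 Ts1Cje libraries lay above wild-type, with a log2 fold change of 0.27 ± 0.06 (edgeR adjusted p = 0.00495). Its complex partner Plrg1 moved the other way (−0.24 ± 0.07, adjusted p = 0.0157), as did Prpf19 itself, which lacks the term (−0.18 ± 0.06). Ppwd1, a cyclophilin-type protein of the spliceosome, fell (−0.36 ± 0.09), as did the helicase Dhx15, which takes spent spliceosomes apart (−0.24 ± 0.08). Plrg1 lost its call without Ts1Cje replicate 3 or wild-type replicate 2 (adjusted p up to 0.0767). Prpf19 lost its call without Ts1Cje replicate 1 or 3 or wild-type replicate 1, 2 or 3 (adjusted p up to 0.144), and Dhx15 lost its call without Ts1Cje replicate 2 or 3 or wild-type replicate 1 or 2 (adjusted p up to 0.0962). Hspa8, the constitutive HSP70 chaperone and the most abundant of all members, had 1920, 2050 and 2233 TPM in Ts1Cje and 1817, 2043 and 2197 TPM in wild-type libraries and did not pass (0.02 ± 0.09, adjusted p = 0.845). Without Hspa8, a choice made after seeing the data, the ratio of summed member TPM was 0.887.

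The Sm and LSm rings had 1 of 5 members lower. Snrpb, which encodes the SmB ring protein of the spliceosomal snRNPs, had 439, 417 and 383 TPM in Ts1Cje and 512, 458 and 488 TPM in wild-type libraries. The groups did not overlap, and the log2 fold change was −0.24 ± 0.07 (edgeR adjusted p = 0.0189). The 96 coding neighbours of Snrpb within 5 Mb had a median of −0.19, 32 of them lower and 15 higher. Snrpb lost its call without Ts1Cje replicate 2 or 3 or wild-type replicate 3 (adjusted p up to 0.0797). Its close relative Snrpn, an imprinted gene for the SmN protein that is best known from neurons and that lacks the term, had 90.4, 68.1 and 75.8 TPM in Ts1Cje and 35.3, 37.7 and 32.2 TPM in wild-type libraries (1.15 ± 0.12, edgeR adjusted p = 6.14e-05). The genes for SmB and SmN moved in opposite directions, and Snrpb was the more abundant in both groups. The handling of reads that align to both genes is not given in the sources used here, so the split between them is uncertain. None of the 6 members of the SMN complex, which loads Sm rings onto snRNAs, passed in edgeR's test, and their log2 fold changes ran from −0.09 to 0.07.

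A subset of the SR genes fell. Of 16 SR and SR-related members, 7 fell, 0 rose and all lay below 0, with a median of −0.17 and a ratio of summed TPM of 0.870. Tra2a, an SR-like activator of exons, had 72.1, 89.8 and 90.4 TPM in Ts1Cje, against 99.7, 128 and 120.4 TPM in wild-type libraries, with a log2 fold change of −0.48 ± 0.12 (edgeR adjusted p = 0.0111). Its Ts1Cje libraries all lay below wild-type, and its 50 coding neighbours within 5 Mb had a median of −0.24, 22 of them lower. Srsf7, an SR protein with a zinc knuckle that also acts at poly(A) sites, had 274, 273 and 249 TPM in Ts1Cje and 358, 329 and 306 TPM in wild-type libraries (−0.32 ± 0.07, edgeR adjusted p = 0.00294). Srsf9 (−0.38 ± 0.06), Srsf10 (−0.35 ± 0.07), the nuclear speckle scaffold gene Srrm2 (−0.27 ± 0.06), Clasrp (−0.27 ± 0.08) and Sfswap (−0.23 ± 0.06), the rest of the 7, fell as well. Clasrp lost its call without Ts1Cje replicate 1 or wild-type replicate 2 or 3 (adjusted p up to 0.0866) and Sfswap lost its call without Ts1Cje replicate 3 (adjusted p up to 0.0654).

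Several SR genes did not pass. Srsf2, the most abundant member of the list, had 651, 594 and 578 TPM in Ts1Cje and 712, 614 and 616 TPM in wild-type libraries, overlapping groups that did not pass (−0.10 ± 0.07, adjusted p = 0.313). Srsf3 (−0.15 ± 0.09, adjusted p = 0.215) and Tra2b (−0.08 ± 0.07, adjusted p = 0.365) did not pass either, and Srsf1, the founding SR protein, which lacks the term, fell (−0.16 ± 0.06). Srsf1 lost its call without Ts1Cje replicate 2 or 3 or wild-type replicate 1 or 2 (adjusted p up to 0.11). Of the kinases that phosphorylate SR domains or the spliceosome, 3 of 5 fell. Srpk2 had 12.02, 12.5 and 12.7 TPM in Ts1Cje and 14.8, 18.01 and 17.5 TPM in wild-type libraries, without overlap (−0.45 ± 0.10, edgeR adjusted p = 0.00394), while its more abundant relative Srpk1 stood at 0.09 ± 0.06 (adjusted p = 0.242). Cdk13 (−0.23 ± 0.06) and Prpf4b, the most abundant kinase of the group (−0.17 ± 0.05), fell too. Prpf4b lost its call without Ts1Cje replicate 1, 2 or 3 or wild-type replicate 1 or 2 (adjusted p up to 0.113). The SR-related gene Son lies in the triplicated segment and is no member, and it rose (0.45 ± 0.06), as did Scaf4 with 108, 116 and 112 TPM in Ts1Cje and 77.8, 74.1 and 75.03 TPM in wild-type libraries (0.56 ± 0.06, edgeR adjusted p = 4.72e-05).

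Among 15 hnRNP members 4 fell and 0 rose, with a median of −0.11, where 22.8% of tested coding genes fell and 26.2% rose. Hnrnpa1, which binds exonic and intronic silencers and was the most abundant hnRNP gene, had 1395, 1325 and 1256 TPM in Ts1Cje, against 1834, 1735 and 1689 TPM in wild-type libraries. All Ts1Cje libraries lay well below wild-type (−0.41 ± 0.06, edgeR adjusted p = 0.000409). Hnrnpa3, its relative, fell (−0.40 ± 0.10), and so did Syncrip (−0.24 ± 0.08). Syncrip lost its call without Ts1Cje replicate 2 or 3 or wild-type replicate 1 or 2 (adjusted p up to 0.126). The other abundant family members Hnrnpa2b1, Hnrnpc, Hnrnpu, Hnrnpl and Hnrnpf had log2 fold changes of −0.12 to −0.01 and did not pass, and Hnrnpk, which lacks the term, stood at −0.16 ± 0.06 (adjusted p = 0.0687). Hnrnpa1 has many processed copies in the genome, and how reads shared with them were counted is not given.

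Of the 3 polypyrimidine tract-binding genes, 1 fell. Ptbp2, known as the neural paralogue, had 38.5, 34.6 and 29.6 TPM in Ts1Cje and 70.99, 63.8 and 58.9 TPM in wild-type libraries. Each Ts1Cje library lay well below each wild-type library, with a log2 fold change of −0.92 ± 0.10 (edgeR adjusted p = 8.41e-05). Ptbp1, the broadly expressed repressor, had 528, 530.4 and 492 TPM in Ts1Cje and 569, 520.2 and 534 TPM in wild-type libraries, overlapping and without a call (−0.07 ± 0.06, adjusted p = 0.341). Ptbp3 stood at −0.07 ± 0.07 (adjusted p = 0.422). Ptbp2 lies at chr3:119718742-119784466, minus strand (mm10), and its 37 coding neighbours within 5 Mb had a median of 0.03, 7 of them lower and 13 higher.

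**Figure D3:**
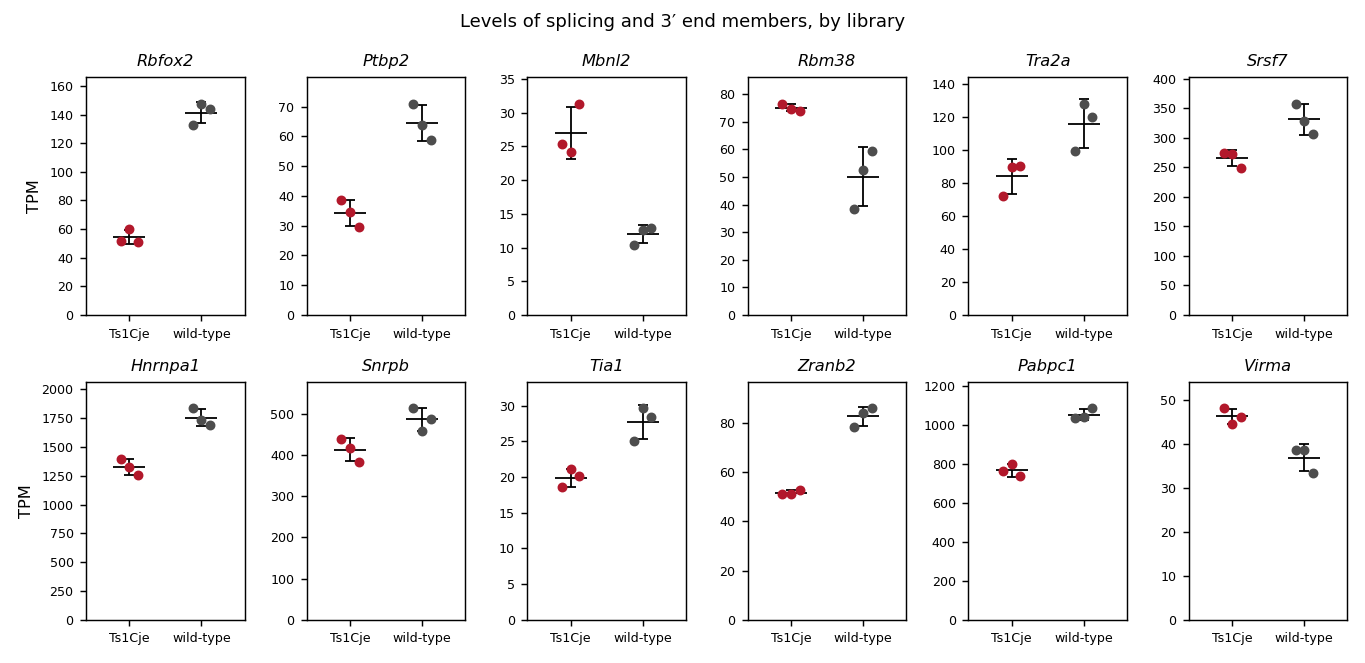
TPM (vertical axis, from 0) of 12 members in each library, Ts1Cje (red) left of wild-type (grey), with the mean as a bar and the SD of 3 libraries as whiskers. Rbfox2 and Ptbp2 lie well below wild-type in Ts1Cje and Mbnl2 lies above, and in every panel the groups do not overlap.

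Some of the wide changes lay among the tissue-restricted and other splicing regulators, while others, such as those of Ptbp2 and Zfp36l1, lay outside that list. Of the 30 members of the regulator list, 12 fell and 2 rose, with a median of −0.20. Rbfox2, which binds GCAUG beside alternative exons and is active in mesoderm and muscle (chr15:77078990-77307004, minus strand, mm10), had 51.9, 60.02 and 50.8 TPM in Ts1Cje, against 133, 148 and 144 TPM in wild-type libraries. The highest Ts1Cje library lay far below the lowest wild-type library, and the log2 fold change was −1.39 ± 0.08 (edgeR adjusted p = 1.82e-06, the smallest of all members). Its family members Rbfox1 and Rbfox3 were below 1 TPM on average and did not pass. Rbm24, a regulator of heart and muscle exons, had 11.1, 28.4 and 15.4 TPM in Ts1Cje and 53.4, 39.1 and 29.9 TPM in wild-type libraries. The groups did not overlap, but the gene did not pass in edgeR's test (−1.17 ± 0.38, adjusted p = 0.0529). It did pass DESeq2 (adjusted p = 0.0208), limma-voom (0.0293), limma-trend on TPM (0.0302) and edgeR without Ts1Cje replicate 2 (0.00287), and its adjusted p was up to 0.175 under the other alternatives.

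Mbnl2 was the most abundant of the 3 muscleblind genes in Ts1Cje and in wild-type. It had 25.4, 24.1 and 31.4 TPM in Ts1Cje and 10.4, 12.7 and 12.9 TPM in wild-type libraries, with no overlap and a log2 fold change of 1.16 ± 0.13 (edgeR adjusted p = 0.00011). Its 23 coding neighbours on chromosome 14 within 5 Mb had a median of 0.52, 14 of them higher and 3 lower. Mbnl1 (−0.17 ± 0.11, adjusted p = 0.237) and Mbnl3 (−0.44 ± 0.34, adjusted p = 0.331) did not pass. Rbm38, an RNA-binding protein and p53 target, had 76.6, 74.6 and 74.04 TPM in Ts1Cje and 38.4, 52.5 and 59.4 TPM in wild-type libraries (0.57 ± 0.15, edgeR adjusted p = 0.015). Rbm38 lost its call without Ts1Cje replicate 1 (adjusted p up to 0.0538). Khdrbs3 (−0.41 ± 0.21, adjusted p = 0.159) and Celf2 (0.24 ± 0.16, adjusted p = 0.246) overlapped between the groups, and Qk, the quaking gene of vessel and glial cells, fell (−0.20 ± 0.06). Qk lost its call without Ts1Cje replicate 2 (adjusted p up to 0.052).

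Broadly expressed regulators in the same list fell by smaller amounts. Ybx1, a cold-shock RNA-binding protein and the most abundant of the list, had 1451, 1413 and 1342 TPM in Ts1Cje and 1627, 1596 and 1606 TPM in wild-type libraries (−0.21 ± 0.06, edgeR adjusted p = 0.013). Ybx1 lost its call without Ts1Cje replicate 3 (adjusted p up to 0.0591). Nono, a paraspeckle protein (−0.34 ± 0.06), Khdrbs1, the SAM68 protein (−0.34 ± 0.07), Rbm39 (−0.30 ± 0.05) and Tardbp, the TDP-43 protein (−0.22 ± 0.05), fell in all 6 fits that left out 1 library. The epithelial regulators without the term moved the other way. Esrp1 had 61.7, 61.96 and 61.99 TPM in Ts1Cje and 13.7, 6.11 and 4.94 TPM in wild-type libraries (2.91 ± 0.38, edgeR adjusted p = 0.00223). Esrp2 (1.80 ± 0.20) and Rbm47 (3.34 ± 0.18) rose as well. The 4 epithelial markers Cdh1, Epcam, Krt8 and Krt18 rose in the same libraries, and mesoderm markers fell beside Rbfox2. The part of these cell types in the levels of Rbfox2, Ptbp2, Mbnl2 and the ESRP genes was not tested.

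Cleavage and polyadenylation members were lower, and genes of the same list without the term went both ways, as tested coding genes did. Of 12 members, 6 fell, 0 rose and all 12 lay below 0, with a summed level of 1381, 1424 and 1349 TPM in Ts1Cje and 1742, 1745 and 1756 TPM in wild-type libraries, a ratio of 0.793. The largest part of that sum was Pabpc1, the cytoplasmic poly(A)-binding protein, which acts on finished tails and in translation. Pabpc1 had 761, 799 and 736 TPM in Ts1Cje and 1033, 1037 and 1083 TPM in wild-type libraries, without overlap (−0.47 ± 0.06, edgeR adjusted p = 0.000171). Without Pabpc1, a choice made after seeing the data, the other 11 members summed to 620.4, 625 and 613 TPM in Ts1Cje and 709, 708 and 673 TPM in wild-type libraries, a ratio of 0.889, near that of all members. Cpsf7, a subunit of cleavage factor Im, had 80.6, 85.8 and 81.9 TPM in Ts1Cje and 103, 103 and 93.9 TPM in wild-type libraries (−0.28 ± 0.06, edgeR adjusted p = 0.00319). Nudt21 (−0.32 ± 0.07) and Cpsf6 (−0.39 ± 0.06), the other subunits of this factor, which favours distal poly(A) sites, lack the term and fell too.

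Among the enzymes and scaffolds, Papola, the main nuclear poly(A) polymerase, fell (−0.18 ± 0.06), and Wdr33, which reads the poly(A) signal in CPSF, fell too (−0.22 ± 0.06). Papola lost its call without Ts1Cje replicate 2 or 3 or wild-type replicate 1 or 2 (adjusted p up to 0.142) and Wdr33 lost its call without Ts1Cje replicate 3 or wild-type replicate 2 (adjusted p up to 0.0512). Papolg, another nuclear poly(A) polymerase, fell (−0.37 ± 0.12). Papolg lost its call without Ts1Cje replicate 1 or 2 or wild-type replicate 2 or 3 (adjusted p up to 0.117). Papolb, the testis poly(A) polymerase, had only 0.206, 0.23 and 0.1596 TPM in Ts1Cje and 0.419, 1.15 and 0.933 TPM in wild-type libraries, 14 counts over the Ts1Cje libraries and 61 over the wild-type libraries (−2.06 ± 0.52, edgeR adjusted p = 0.00966). It met the count minimum through the wild-type libraries alone. It also overlaps Radil on the same strand, so its reads cannot be assigned with certainty. Of 14 tested genes of this list without the term, 3 fell and 4 rose, with a median of 0.04 and a ratio of summed TPM of 0.981. Among all tested coding genes 22.8% fell and 26.2% rose. Beside Nudt21 and Cpsf6, Cpsf1 fell (−0.19 ± 0.06). Cstf2t (0.29 ± 0.08), Ssu72 (0.24 ± 0.08), Clp1 (0.30 ± 0.10) and Pabpn1l rose, the last with 89 counts over the Ts1Cje and 2 over the wild-type libraries, in a neighbourhood with a median of 0.61. Cstf2 (0.01 ± 0.06, adjusted p = 0.913) and Pcf11 (0.12 ± 0.07, adjusted p = 0.176) did not pass. Cpsf1 lost its call without Ts1Cje replicate 3 or wild-type replicate 2 or 3 (adjusted p up to 0.076) and Cstf2t lost its call without Ts1Cje replicate 2 or wild-type replicate 2 or 3 (adjusted p up to 0.0913). Ssu72 lost its call without Ts1Cje replicate 1 or 3 or wild-type replicate 2 or 3 (adjusted p up to 0.145). Clp1 lost its call without Ts1Cje replicate 1, 2 or 3 or wild-type replicate 1 or 2 (adjusted p up to 0.14). Slbp, the stem-loop protein of histone mRNA 3′ ends, had 50.1, 46.5 and 47.1 TPM in Ts1Cje and 58.1, 56.8 and 55.3 TPM in wild-type libraries (−0.25 ± 0.07, edgeR adjusted p = 0.0111), and cytoplasmic polyadenylation had 0 of 2 members called, with Tent2 at −0.15 ± 0.10.

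**Figure D4:**
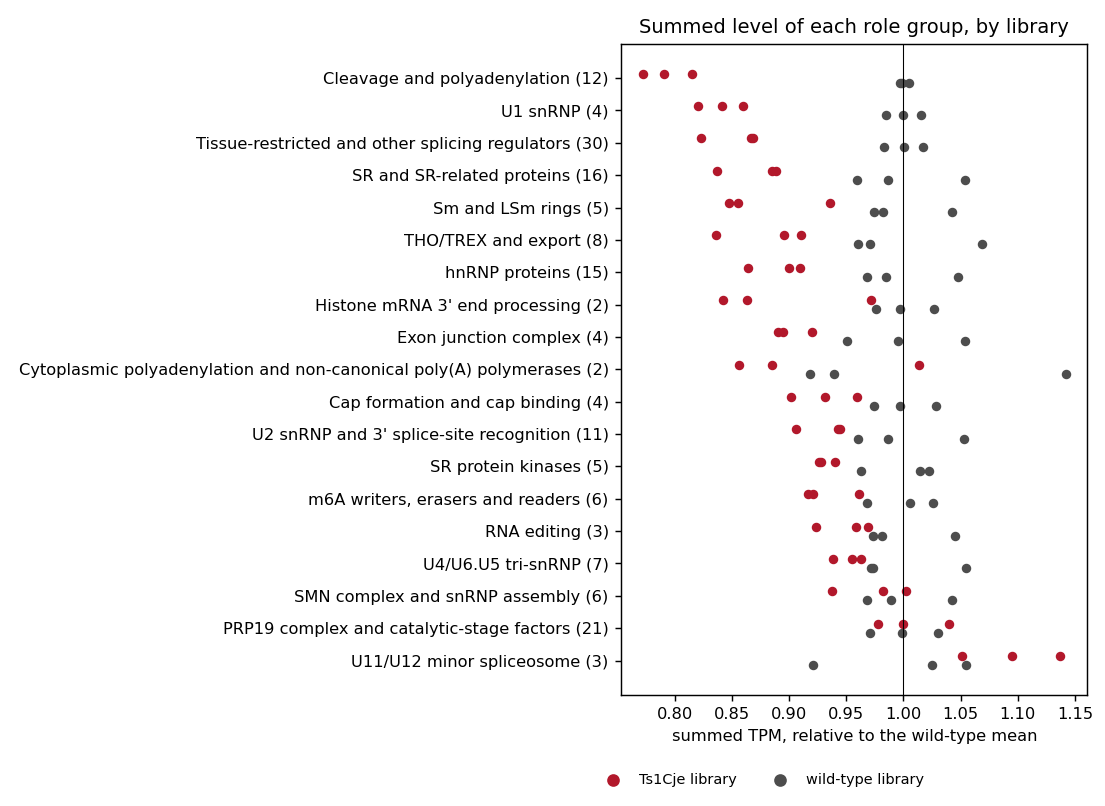
Summed TPM of the members of each role group in every library, divided by the wild-type mean of that group (horizontal axis), Ts1Cje (red) above wild-type (grey), with the number of members in brackets. Cleavage and polyadenylation lies lowest with a ratio of means of 0.793 (0.889 without Pabpc1) and the minor spliceosome highest with 1.09.

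Export factors were mixed, while the exon junction members all lay below 0 without a call. Ddx39b, the helicase that acts in early spliceosome assembly and in export, had 296, 298 and 266 TPM in Ts1Cje and 383, 366 and 366 TPM in wild-type libraries. The groups did not overlap (−0.38 ± 0.06, edgeR adjusted p = 0.000785). Its paralogue Ddx39 had 121, 110.1 and 114 TPM in Ts1Cje and 111, 88.9 and 88.6 TPM in wild-type libraries, and rose by 0.26 ± 0.09 (edgeR adjusted p = 0.0355), although 1 wild-type library lay within the range of the Ts1Cje libraries. Ddx39 lost its call without Ts1Cje replicate 1 or 3 or wild-type replicate 2 or 3 (adjusted p up to 0.149). Thoc2, the scaffold of the THO complex, fell (−0.35 ± 0.06), as did Thoc2l, an annotated Thoc2-like gene (−0.48 ± 0.08), though reads shared by such near copies may be split between them. None of the 4 exon junction members passed, including Magoh (−0.17 ± 0.08, adjusted p = 0.125), while the helicase core Eif4a3, which lacks the term, fell (−0.23 ± 0.07). Eif4a3 lost its call without Ts1Cje replicate 2 or 3 or wild-type replicate 3 (adjusted p up to 0.0785).

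Genes that mark and edit the message also split. Of 6 members of the m6A pathway, which methylates adenosines in mRNA, 3 fell and 1 rose. Virma, the scaffold of the writer complex, had 47.98, 44.5 and 46.1 TPM in Ts1Cje and 38.6, 38.5 and 33.2 TPM in wild-type libraries and rose by 0.33 ± 0.07 (edgeR adjusted p = 0.00545), in a neighbourhood with a median of 0.22. Its partners Wtap (−0.21 ± 0.08) and Zc3h13 (−0.21 ± 0.06) fell, as did the nuclear reader Ythdc1 with 29.3, 26.7 and 25.4 TPM in Ts1Cje and 37.02, 33.7 and 31.7 TPM in wild-type libraries (−0.34 ± 0.08, edgeR adjusted p = 0.00533). Wtap lost its call without Ts1Cje replicate 2 or 3 or wild-type replicate 2 or 3 (adjusted p up to 0.151) and Zc3h13 lost its call without Ts1Cje replicate 2 or 3 or wild-type replicate 2 or 3 (adjusted p up to 0.0888). The catalytic subunit Mettl3 (−0.15 ± 0.08, adjusted p = 0.179) and the eraser Alkbh5 (−0.08 ± 0.07) did not pass. Adarb1, an adenosine deaminase of RNA, had 2.69, 3.34 and 2.93 TPM in Ts1Cje and 4.004, 6.28 and 6.19 TPM in wild-type libraries (−0.89 ± 0.19, edgeR adjusted p = 0.00399), while the general editor Adar stayed between 28.5 and 32.1 TPM in all libraries (0.03 ± 0.07, adjusted p = 0.747). In cap formation Rnmt, the cap methyltransferase, fell (−0.34 ± 0.09) and Srrt, a partner of the cap-binding complex, did not pass (−0.11 ± 0.06, adjusted p = 0.152). Rnmt lost its call without Ts1Cje replicate 2 or 3 (adjusted p up to 0.0559).

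Of 53 members outside the role lists, 20 fell and 3 rose. Zfp36l1, which binds AU-rich elements and promotes mRNA decay, had 117, 148 and 128 TPM in Ts1Cje and 201, 245 and 242 TPM in wild-type libraries, without overlap (−0.82 ± 0.11, edgeR adjusted p = 0.000276). Zranb2, a zinc-finger splicing factor, had 51.1, 50.9 and 52.8 TPM in Ts1Cje and 78.4, 83.95 and 85.8 TPM in wild-type libraries (−0.69 ± 0.07, edgeR adjusted p = 3.95e-05). It lies at chr3:157534160-157548410, plus strand (mm10), and its 17 coding neighbours within 5 Mb had a median of −0.72, with 10 lower and 0 higher. Cir1, a corepressor with links to splicing, fell (−0.51 ± 0.13). Cir1 lost its call without wild-type replicate 2 (adjusted p up to 0.0606).

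Aff2 and Rbm26 were among those that rose. Aff2, a gene of the AFF family of elongation factors on chromosome X, had 2.503, 2.09 and 3.82 TPM in Ts1Cje and 0.734, 0.336 and 0.473 TPM in wild-type libraries, 346 counts over Ts1Cje and 64 over wild-type (2.44 ± 0.34, edgeR adjusted p = 0.000316). Rbm26 rose by 0.23 ± 0.07, and its 15 neighbours on chromosome 14 had a median of 0.69. Rbm26 lost its call without Ts1Cje replicate 1 or 3 or wild-type replicate 1, 2 or 3 (adjusted p up to 0.1).

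Members that fell were spread over the genome. Members that fell lay on 18 chromosomes, with the largest number, 11 of 21, on chromosome 5, while 0 of 4 fell on chromosome 1 and 0 of 4 on chromosome 16. Among 196 members whose coding neighbours within 5 Mb had a median between −0.2 and 0.2, 63 fell and 5 rose, with a median of −0.15. The 4 members in regions with a median below −0.2 (Tra2a, Prpf39, Zranb2 and Ppp4r2) all fell, and of 17 in regions above 0.2, 3 fell and 3 rose. Among 255 genes of the role lists that lack the term, 244 were tested. Of these, 80 fell and 24 rose, against 22.8% and 26.2% of tested coding genes, with a median of −0.13. Unlike the members, these genes include some of the triplicated segment. Those that rose include Son and Dyrk1a in that segment, and Snrpn, Esrp1, Esrp2 and Rbm47 outside it. Genes in regions shifted the same way were not set apart. Examples among those that fell are Srsf11, Fubp1 and Ythdf1, with neighbour medians of −0.72, −0.66 and −0.69. In the U2 list 11 of 17 such genes fell and 1 rose, against 1 of 11 members lower, and in the hnRNP list 8 of 16 fell and 0 rose. In the SR list 5 of 14 fell and 1, Son of the triplicated segment, rose. In the U1 list 4 of 7 fell and 0 rose, and in the Sm and LSm list 3 of 10 fell and 1 rose.

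Single calls depended on the libraries. Of the 70 genes that fell, 36 kept their call in all 6 fits that left out 1 library, as did 4 of the 8 that rose, and 67 and 7 also passed DESeq2, which called 20.3% of all tested genes lower and 22.2% higher. The share of all called genes that kept their call is not given here. The counts therefore do not show whether calls of members were less stable than those of other genes. Without wild-type replicate 1, the library that lay away from its group, 67 members fell and 8 rose, against 21.2% and 23.9% of all tested genes. Leaving out wild-type replicate 2 gave 44 lower calls (15.0% of all tested genes) and leaving out Ts1Cje replicate 3 gave 46 (15.8%). Leaving out Ts1Cje replicate 1 gave 4 higher calls (20.2%). Of the members, 73 overlap another tested gene, among them Rbfox2, Ptbp2 and Mbnl2, and as the counting strand is not given in the sources used here, shared reads cannot be told apart.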

How the data were processed

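The tables used were raw counts of reads per gene, as the authors deposited them, and the authors' deposited TPM of the same 6 libraries. Per the submitters' processing notes, FastQC 0.11.7, Trimmomatic 0.38, HISAT2 2.1.0, featureCounts 1.6.3 and the mm10 genome were used. Their settings, the strand counted and the treatment of multi-mapping reads were not given in the sources used here. Per the labels' protocols, poly(A) RNA was made into directional libraries.

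Counts were filtered with filterByExpr of edgeR 4.0.16 in R 4.3.3 (minimum count 10, minimum total 15) and scaled by TMM. Ts1Cje was compared with wild-type by edgeR's robust quasi-likelihood test without covariates, with Benjamini-Hochberg adjustment over 17315 genes and a threshold of 0.05. The SE is the absolute log2 fold change over the root of F. Adjusted p-values of single genes are from this fit unless another is named. The fit was tested on simulated data with 200 changed genes, whereas 7579 genes were called in the real data. The simulation therefore cannot show how scaling and false calls behave here. DESeq2 1.42.0 and limma 3.58.1 gave alternatives. Levels and sums are deposited TPM. Overlaps and neighbours (within 5 Mb, coding, not members) use the deposited mm10 coordinates.

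In each role list, the called members with the largest rise and fall (mean TPM of at least 1) and the most abundant member are named. So are the 10 largest called changes in each direction over all members and a list of core genes. Members and lists were chosen with earlier results of these data known. The lot numbers were not used as pairs. A few genes that the naming rule covers are not reported here.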

Additional observations from a re-analysis of the deposited data

How the results depend on the processing

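With upper-quartile factors the members' median log2 fold change was −0.17, and at an adjusted p threshold of 0.01, 4 members (1.84%) were higher and 30 (13.8%) lower, against 16.9% and 13.2% of all tested genes, so at this threshold the share of members lower was near the background. Leaving out 1 library at a time gave 4 to 8 higher and 44 to 67 lower, a median of −0.15 to −0.12 and a ratio of summed TPM of 0.889 to 0.908. In these fits 18.8% to 23.9% of all tested genes were higher and 15.0% to 21.2% lower. Across the other alternatives run (DESeq2 size factors, DESeq2, limma-voom, limma-trend on TPM, other count filters, a wider ontology term, the segment kept), 7 to 9 members were higher and 56 to 77 lower. There 14.2% to 23.5% of all tested genes were higher and 12.4% to 21.1% lower, with the smallest shares without a count filter. With upper-quartile factors 6 members were higher and 84 lower, against 22.0% of all tested genes higher and 22.4% lower. Each scaling moved the median of all tested genes by less than 0.1.

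Genes without a call that changed sign all lay near 0. With upper-quartile factors, Cstf2 stood at −0.019 and Hspa8 at −0.0034. Leaving out 1 library at a time, Adar ran from −0.0064 (without wild-type replicate 2) to 0.065, Cstf2 from −0.0049 (wild-type replicate 1) to 0.024, with −0.000196 without Ts1Cje replicate 3, and Hspa8 from −0.063 (wild-type replicate 1) to 0.10, with −0.037 without Ts1Cje replicate 3. Sf1 ran from −0.094 to 0.0073 (wild-type replicate 1) and Snrnp70 from −0.059 to 0.012 (Ts1Cje replicate 3), with 0.0012 without wild-type replicate 1. The cause of these moves was not tested.

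The labels' lot numbers are shared by the groups. Same-numbered samples deviated together with correlations of 0.219, 0.0589 and 0.202, not all above 0.1, so the numbers were not taken as pairs. Every sample correlated best with its own number, a hint from the data and not the design. With the replicate block, 10 members were higher and 84 lower, against 25.2% and 22.9% of all tested genes, both above the shares without it. Genes with few counts, such as Papolb, Rbfox1 and Rbfox3, and folds under about 0.2 on the log2 scale are limited by depth and by 3 libraries a group, where the median SE of members was 0.08.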
